A study of Mus musculus with 12 samples.

Results

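Serum amyloid A3 (Saa3), serum amyloid A1 (Saa1), lipocalin 2 (Lcn2), haptoglobin (Hp), ceruloplasmin (Cp) and Steap4 are 6 acute-phase genes, and their messenger RNA was followed in mouse retinas 3 days after a transient rise of the intraocular pressure (IOP). They were chosen by name, with Saa3 picked because its difference after IOP was the largest in the mice given ganciclovir (GCV) and spread widely between eyes, so the difference between IOP‐treated and control retinas with GCV is a description for all 6 and was not tested. The 6 genes are 6 of 24340 rows of the table, and all 6 were among the 18509 rows above 0 in at least 1 library. All mice were p16‐3MR animals of 12 to 16 weeks, whose transgene places a fusion of luciferase, a red fluorescent protein and a viral thymidine kinase under the p16 regulatory region, so that GCV is toxic to cells that express the fusion. In each of 6 mice the pressure of one eye was kept at 85 to 90 mm Hg for 60 min, with the fellow eye as the non‐IOP control. Mice 1, 2 and 5 received 25 mg/kg GCV once a day, and mice 3, 4 and 6 received no GCV, which gave 4 groups of 3 libraries, each from 1 retina. The methods describe a sham treatment of control mice with PBS or vehicle (DMSO), and the labels do not say what mice 3, 4 and 6 were given. The transgene was carried by every group, controls included, and the GCV comparisons are between different mice whereas the IOP comparisons are between the eyes of the same mice.

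The acute-phase response is the program in which interleukin‐6‐type cytokines, interleukin‐1 and tumor necrosis factor raise a set of secreted proteins, classically in liver, through STAT3, NF‐kB and the C/EBP transcription factors. In retina, Mueller glia and astrocytes are known to turn on part of this set after injury, and neutrophils and macrophages carry some of the same messages. Several of the proteins handle iron or heme: lipocalin 2 binds iron-loaded siderophores, haptoglobin captures free hemoglobin, ceruloplasmin is a copper ferroxidase that oxidizes iron for export, and STEAP4 is a membrane metalloreductase.

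The promoters are shown because the members other than Saa1 were higher after IOP in the same retinas, and because Saa3 and Saa1, which lie in the same gene cluster, had very different levels. Sequences and coordinates are those of RefSeq on GRCm38.p6, the assembly known as mm10, which is also the build in the labels. An entry was found for 5 of the 6 genes, the exception being Hp. Each line gives the 250 bases upstream of the annotated start, 5′ to 3′ on the strand of the gene, with matches to the motifs below in capitals. For Saa3 and Saa1 this is the start of an annotated transcript that begins inside the span given for the gene below, so the Saa3 window lies within that span and the Saa1 window overlaps its end.

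Saa3 (chr7:46715677-46715926, minus strand): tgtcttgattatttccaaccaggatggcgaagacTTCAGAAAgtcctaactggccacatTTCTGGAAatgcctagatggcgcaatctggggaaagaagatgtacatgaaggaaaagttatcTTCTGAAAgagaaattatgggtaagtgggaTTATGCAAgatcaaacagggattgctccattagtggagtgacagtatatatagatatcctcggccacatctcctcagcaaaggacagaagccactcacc

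Saa1 (chr7:46742981-46743230, minus strand): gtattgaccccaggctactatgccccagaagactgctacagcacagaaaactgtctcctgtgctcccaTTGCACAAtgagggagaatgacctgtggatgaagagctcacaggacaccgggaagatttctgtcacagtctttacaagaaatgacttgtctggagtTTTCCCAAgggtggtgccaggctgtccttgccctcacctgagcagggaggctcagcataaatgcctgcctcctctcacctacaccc

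Lcn2 (chr2:32387740-32387989, minus strand): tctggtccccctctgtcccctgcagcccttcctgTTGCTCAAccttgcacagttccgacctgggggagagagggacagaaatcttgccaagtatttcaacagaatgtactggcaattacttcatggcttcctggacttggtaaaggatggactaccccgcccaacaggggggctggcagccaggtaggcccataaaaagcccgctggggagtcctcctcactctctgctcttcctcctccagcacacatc

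Cp, second annotated start (chr3:19956999-19957248, plus strand): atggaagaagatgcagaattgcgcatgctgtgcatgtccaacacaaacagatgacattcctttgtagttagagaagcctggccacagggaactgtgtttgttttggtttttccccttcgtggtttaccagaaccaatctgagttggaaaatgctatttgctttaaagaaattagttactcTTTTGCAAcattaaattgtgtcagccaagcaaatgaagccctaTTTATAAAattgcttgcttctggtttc

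Steap4 (chr5:7960222-7960471, plus strand): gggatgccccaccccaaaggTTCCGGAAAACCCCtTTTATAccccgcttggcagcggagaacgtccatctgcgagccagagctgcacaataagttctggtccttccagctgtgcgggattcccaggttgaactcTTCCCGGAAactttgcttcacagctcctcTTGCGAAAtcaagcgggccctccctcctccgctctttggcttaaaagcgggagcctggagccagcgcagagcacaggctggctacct

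The letters searched on both strands were TTNNGNAA for C/EBP, TTCNNNGAA for STAT, GGG and TTCC with 3 bases between them for NF‐kB and TATAAA for a TATA box. The C/EBP letters occurred 4 times upstream of Saa3, between 216 and 92 bases before the start. They occurred 2 times upstream of Saa1, 1 time upstream of Lcn2, 1 time upstream of each of the annotated starts of Cp and 2 times upstream of Steap4. These letters are common, since 36.8% of the 32851 promoters of the reference held them. STAT letters were found only upstream of Steap4 among the members (7.02% of all promoters held them), as were NF‐kB letters (4.65%). The first C/EBP match of Steap4 overlaps its NF‐kB match, so that both stand in 1 run of capitals. TATA letters were found upstream of Steap4 and upstream of the second start of Cp, where matches on both strands overlap (12.4% of all promoters held them). A match describes the letters of this window and is not evidence of binding.

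The table holds FPKM (fragments scaled to the exon length of a gene and to the size of the library), so levels can be compared between genes per unit of length. Depth was estimated from low values at 3970000 to 9040000 fragments per library, lowest in the IOP‐treated retina of mouse 6, where 14844 rows were above 0 against 16044 to 16593 in the other 11 libraries. The photoreceptor genes Sag, at 4186 to 8251 FPKM, and Gnat1, at 9572 to 18196 FPKM, were abundant in all 12 libraries, as a retina should show. The control retina of mouse 6 stood apart from the other 5 control retinas, with the acute-phase gene Serpina3n at 85.4 FPKM against 9.43 to 18.9 FPKM and the glial gene Gfap at 33.3 FPKM against 9.62 to 21.8 FPKM.

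Saa3 encodes a serum amyloid A made outside the liver, in macrophages and epithelia among other cells. In control retinas it was barely detected, at 0.712 FPKM in mouse 3, 0.601 FPKM in mouse 4 and 0.629 FPKM in mouse 6, which corresponds to about 2 fragments in each library. The IOP‐treated retinas of the same mice had 17.4, 69.6 and 49.0 FPKM. Every IOP‐treated value therefore lay far above every control value, with the retina of mouse 4 highest. On the log2(FPKM + 1) scale the IOP‐treated retinas were 4.61 higher (SE 1.42, 95% interval 1.45 to 7.77), which ranked number 7 of the 18509 genes. The difference did not pass the test (limma, Benjamini-Hochberg adjusted p = 0.157). That test takes 1 spread from all 4 groups, including the IOP‐treated GCV retinas whose wide spread helped to choose Saa3. The SD on this scale was 0.05 in control and 1.01 in IOP‐treated retinas without GCV, against 3.68 in IOP‐treated retinas with GCV. The SE, the interval and the adjusted p therefore rest in part on values that the choice of Saa3 used. A fit of the 6 libraries without GCV alone takes no spread from the GCV groups and tested 18014 genes. Its limma adjusted p for Saa3 was 0.0165. With so few fragments in the controls the size depends on the pseudocount, and with 0.1 in place of 1 it was 5.71.

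With GCV the Saa3 control values were 0.358 FPKM in mouse 1, 0.716 FPKM in mouse 2 and 3.99 FPKM in mouse 5. The IOP‐treated retinas had 224 FPKM in mouse 1, 24.9 FPKM in mouse 2 and 4173 FPKM in mouse 5. Mouse 5 was thus highest in both eyes, and its IOP‐treated retina stood far above every other. There Saa3 was number 6 in abundance among all genes of the library, on about 14009 estimated fragments, whereas it ranked number 228 in mouse 1 and number 3332 in mouse 2. The IOP‐treated retina of mouse 2 lay below those of mice 4 and 6, which had received no GCV. The mean difference of 7.0 on the log2(FPKM + 1) scale was the largest of all genes, which is how Saa3 was chosen.

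Saa1 is the major serum amyloid A of plasma in the acute phase. It was listed at 0 in all 3 control retinas and in the IOP‐treated retinas of mice 3 and 6, and at 0.259 FPKM in that of mouse 4. With GCV it was at 0.594, 0.296 and 0.331 FPKM in the control retinas of mice 1, 2 and 5. The IOP‐treated retinas of mice 1 and 2 were listed at 0 and that of mouse 5 at 1.31 FPKM. No library had more than about 5 fragments of Saa1, so it did not follow Saa3 at a level that this depth can show. The IOP difference without GCV was 0.11 on the log2 scale (SE 0.27, 95% interval −0.49 to 0.71, limma adjusted p = 0.849).

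Both genes lie in a cluster on chromosome 7, Saa3 at 46711998 to 46719615 and Saa1 at 46740497 to 46743181, with 20882 bases between them. Of the other genes there, Saa4 was listed at 0 in all 12 libraries and Saa2 reached at most 0.520 FPKM, in the IOP‐treated retina of mouse 5. The neighbour Saal1, which is no serum amyloid A gene, lay between 1.86 and 3.06 FPKM in the 12 libraries. The transcripts of Saa1 and Saa2 are 94.4% identical, and 74 of 560 windows of 50 bases of Saa1 (13.2%) also occur in Saa2, so reads of these genes may be split or lost and their values are uncertain. Saa1 and Saa3 are 76.0% identical over the aligned bases and share 9 such windows (1.61%).

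Lcn2 was expressed in every retina. Control retinas had 17.5 FPKM in mouse 3, 9.58 FPKM in mouse 4 and 17.7 FPKM in mouse 6, and the IOP‐treated retinas of these mice had 116, 262 and 157 FPKM. All IOP‐treated retinas were above all controls, and mouse 4 had the lowest control and the highest IOP‐treated value. Lcn2 rose by 3.46 on the log2(FPKM + 1) scale (SE 0.60, 95% interval 2.13 to 4.79, limma adjusted p = 0.0242), which ranked number 28 of all genes. The call depended on the fit. With the mouse as a block, which pairs the 2 eyes, the adjusted p was 0.0655. The call was also lost without any one of the control retinas (adjusted p = 0.0918 without mouse 3, 0.115 without mouse 4 and 0.0649 without mouse 6) and when IOP‐treated mouse 6 was left out (0.0558), while the difference was between 3.14 and 3.72 over all 6 fits that left out 1 library.

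With GCV, Lcn2 was at 13.6, 16.3 and 23.8 FPKM in the control retinas of mice 1, 2 and 5 and at 284, 90.2 and 646 FPKM in their IOP‐treated retinas. Mouse 5 was again highest and mouse 2 lowest among the IOP‐treated retinas. In mouse 5 Lcn2 was number 56 in abundance. Within mice, the IOP‐treated retina had 6.63, 27.3 and 8.88 times the Lcn2 of the control retina in mice 3, 4 and 6. With GCV the ratio was 20.8 in mouse 1, 5.54 in mouse 2 and 27.2 in mouse 5, so the ranges with and without GCV overlapped almost fully.

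Hp was close to the limit of detection in controls, listed at 0 in mice 3 and 4 and at 0.0972 FPKM in mouse 6. The IOP‐treated retinas had 12.1, 1.74 and 1.05 FPKM, highest in mouse 3, the animal with the lowest IOP‐treated Saa3 and Lcn2 of those without GCV. The groups did not overlap, yet the difference of 2.02 on the log2(FPKM + 1) scale had an SE of 1.13 and did not pass the test (limma adjusted p = 0.347), and with a pseudocount of 0.1 it was 4.56. With GCV, the control retinas of mice 1, 2 and 5 had 0.336, 0.110 and 0.124 FPKM and the IOP‐treated retinas had 4.38, 2.09 and 107 FPKM. A single retina, that of mouse 5, therefore carries most of the group mean of 38.0 FPKM.

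Cp had the highest level of the members in control retinas. It was at 49.0, 39.5 and 54.9 FPKM in the control retinas of mice 3, 4 and 6 and at 84.7, 167 and 143 FPKM in their IOP‐treated retinas. With GCV the control retinas of mice 1, 2 and 5 had 39.5, 40.6 and 55.3 FPKM, and the IOP‐treated retinas had 129, 84.8 and 228 FPKM. Every IOP‐treated value was above every control value in both treatments. Without GCV the difference was 1.40 on the log2(FPKM + 1) scale (SE 0.34, 95% interval 0.63 to 2.16), which missed the threshold (limma adjusted p = 0.0828). The ratio of the eyes was 1.73, 4.22 and 2.61 in mice 3, 4 and 6 and 3.26, 2.09 and 4.11 in mice 1, 2 and 5.

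Steap4 was at 0.389, 0.959 and 0.578 FPKM in the control retinas of mice 3, 4 and 6, and at 7.63, 11.8 and 2.60 FPKM in their IOP‐treated retinas. With GCV, mice 1, 2 and 5 had 0.892, 0.611 and 0.685 FPKM in the control and 9.64, 1.91 and 15.2 FPKM in the IOP‐treated retina. The lowest IOP‐treated value, in mouse 2, was still above the highest control. Without GCV the difference was 2.18 on the log2(FPKM + 1) scale (SE 0.60, 95% interval 0.86 to 3.50, limma adjusted p = 0.113), and with a pseudocount of 0.1 it was 3.16 and passed the test (adjusted p = 0.0486).

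**Figure D1:**
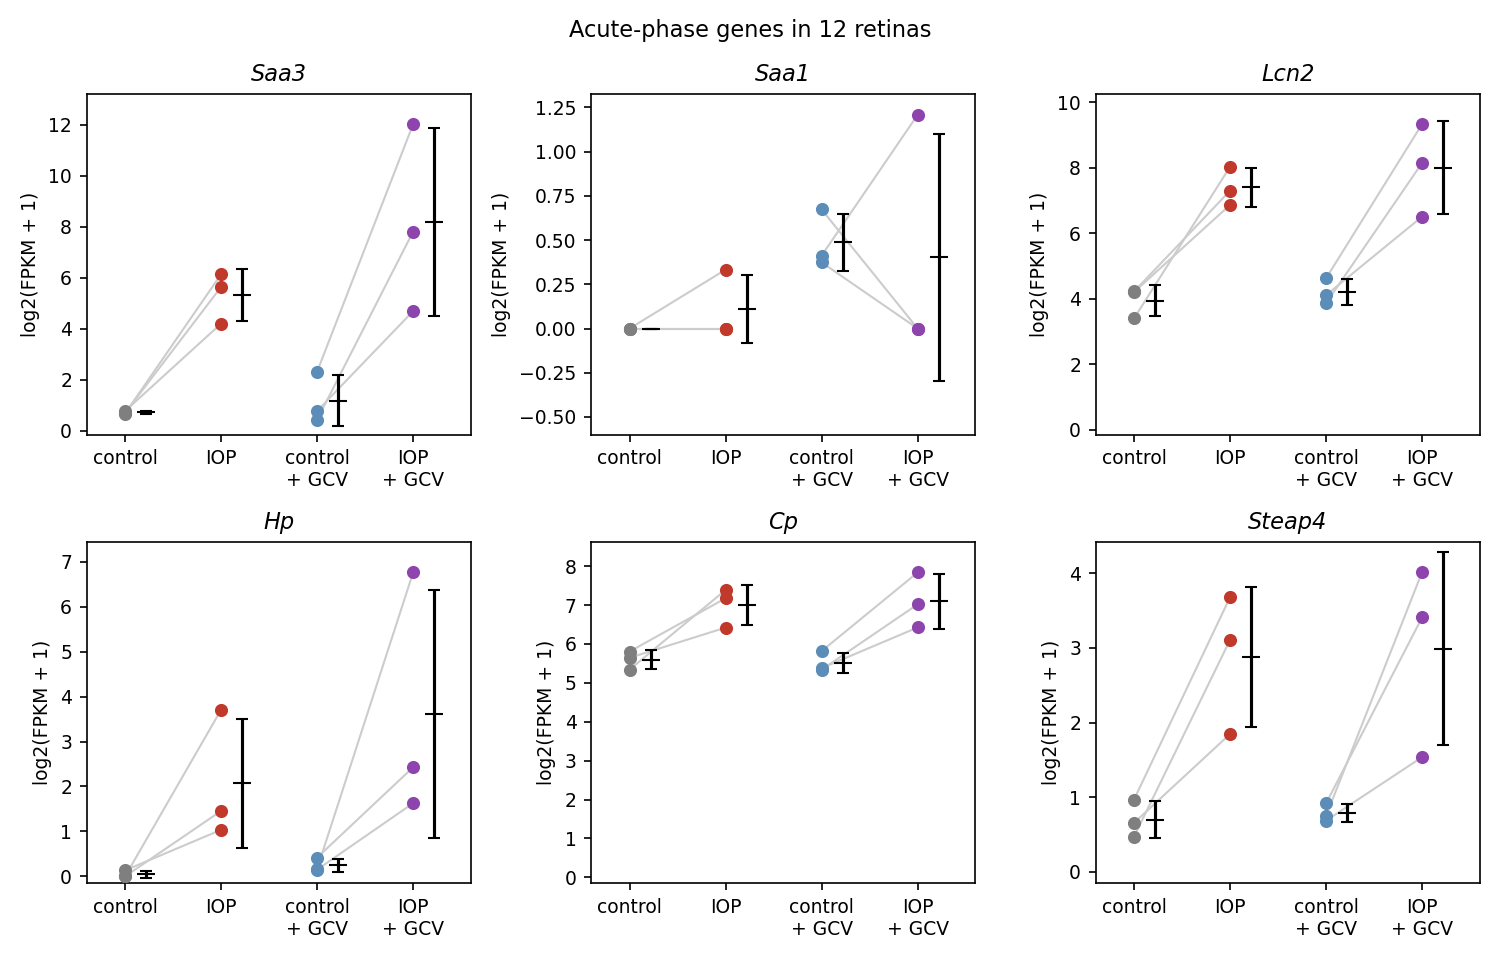
Log2(FPKM + 1) of each gene (y axis) in the 4 groups (x axis). Colored points are the 12 retinas, grey lines join the 2 eyes of a mouse, and black bars give the mean and SD of 3 retinas. The 6 panels have separate y axes: Saa3 reached 4173 FPKM in 1 retina, whereas Saa1 stayed at or below 1.31 FPKM.

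Of the 6 genes, 1 (Lcn2) was called higher after IOP without GCV, and none was called lower. Over all 18509 genes 1.42% were called higher and 0.232% lower. These calls are from the fit without pairing. With the mouse as a block 0 of the 6 were called higher, and the calls over all genes fell from 306 to 75. In 5 of the 6 genes, all but Saa1, no IOP‐treated retina overlapped a control retina, against 11.7% of all genes with IOP‐treated retinas above controls. At an unadjusted p under 0.05 there were 4 members and 3501 genes in all. The median difference of the 6 members was 2.10 on the log2 scale, and that of all genes 0. With GCV the same 5 genes did not overlap between the groups, where 14.5% of all genes lay higher without overlap, in the contrast by which Saa3 was chosen. In whole retinas, more cells of a type and more RNA per cell cannot be told apart.

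The eyes of a mouse were compared within each animal, on the log2(FPKM + 1) scale. Saa3 differed by 3.43, 5.46 and 4.94 in mice 3, 4 and 6 (mean 4.61 ± 1.06, SD, n = 3) and by 7.37, 3.92 and 9.71 in mice 1, 2 and 5 (mean 7.0 ± 2.91, SD, n = 3). The mean difference between eyes was therefore 2.39 larger with GCV, but the ranges overlapped, because mouse 2 fell between the mice without GCV. Lcn2 differed on average by 3.46 ± 1.04 (SD, n = 3) without and 3.80 ± 1.23 (SD, n = 3) with GCV. For Cp the means were 1.40 ± 0.64 and 1.58 ± 0.50 (SD, n = 3 each), and for Steap4 2.18 ± 0.86 and 2.20 ± 1.23 (SD, n = 3 each). Hp gave 2.02 ± 1.48 without and 3.36 ± 2.81 with GCV (SD, n = 3 each). The ranges of the 2 treatments overlapped for all 6 genes, and these differences were not tested because they contain the contrast by which Saa3 was chosen.

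The 5 members other than Saa1 were higher in the IOP‐treated eye in 6 of 6 mice, and Saa1 in 2 of 6. The share of all genes higher in 6 of 6 mice was not counted, so this does not set the members apart. Mice 1, 2 and 5 also entered the contrast by which Saa3 was chosen. Mouse 5 had the largest difference of the 6 mice in Saa3, Lcn2, Hp and Steap4 and the second largest in Cp. Mouse 2 had the smallest of the 6 in Lcn2 and Steap4. Hp in mouse 3 broke this order, with the second largest Hp difference (3.71) and the smallest Saa3 (3.43) and Cp (0.78) differences.

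**Figure D2:**
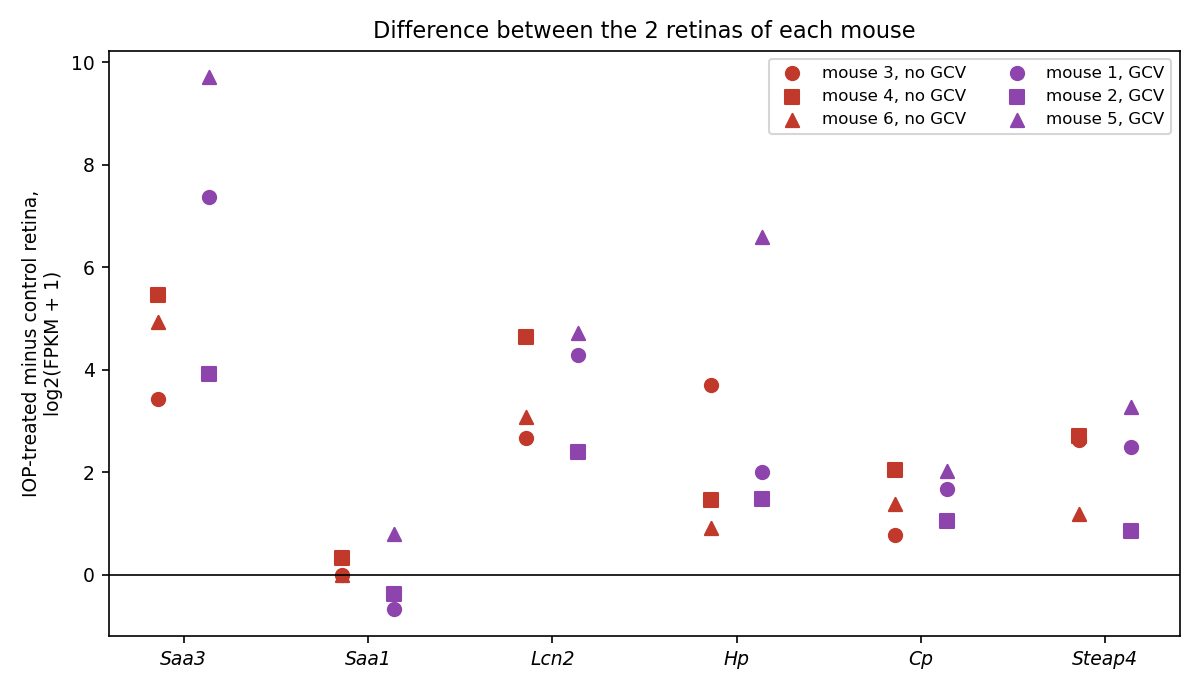
Difference in log2(FPKM + 1) between the IOP‐treated and the control retina of each mouse (y axis) for each gene (x axis). Each point is 1 mouse, red without and purple with GCV. All points of Saa3, Lcn2, Hp, Cp and Steap4 lie above 0, from 0.78 for Cp in mouse 3 to 9.71 for Saa3 in mouse 5, and the colors overlap in every gene.

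GCV was next compared with no GCV within each kind of retina. Both kinds of GCV retina entered the contrast by which Saa3 was chosen, so its values here are a description with no test, and the tests of the other 5 members share those libraries. In control retinas none of these 5 was called (limma adjusted p = 1 for each), none had an unadjusted p under 0.05, and over all genes 0% were called with 295 at an unadjusted p under 0.05. The Saa3 difference was 0.46 on the log2 scale, and without the control retina of mouse 5 it was −0.11. Cp differed by −0.08 (95% interval −0.85 to 0.68) and Lcn2 by 0.26 (95% interval −1.07 to 1.59). Saa1 and Hp were higher in all 3 GCV controls than in all 3 controls without GCV, as 6.01% of all genes were, at no more than about 3 fragments of either gene in any of these libraries.

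In IOP‐treated retinas none of the 5 was called either, with a smallest adjusted p of 0.819 (Hp) and no unadjusted p under 0.05, and 0% of all genes were called (774 at an unadjusted p under 0.05). The Saa3 mean was 2.85 higher with GCV on the log2 scale, with 0.92 when mouse 5 and 4.59 when mouse 2 was left out of the GCV retinas. Hp differed by 1.54 (95% interval −0.96 to 4.04), Lcn2 by 0.60 (95% interval −0.73 to 1.93), Cp by 0.10 (95% interval −0.67 to 0.86) and Steap4 by 0.11 (95% interval −1.21 to 1.43). Without mouse 5 these became −0.04 for Hp, −0.07 for Lcn2, −0.27 for Cp and −0.40 for Steap4. The sign of the GCV difference in these 4 genes thus turned with 1 retina. For Cp it also turned without IOP‐treated mouse 3 (−0.19), and for Steap4 without IOP‐treated mouse 6 (−0.41) or mouse 1 (−0.10). The intervals of these 4 genes include differences in both directions.

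Genes that switch on the acute-phase set were measured beside it. Among 12 transcription factors and brakes, 4 rose after IOP without GCV and the same 4 rose with GCV, and none fell. Over all genes with GCV, 1.65% were called higher and 0.157% lower. The median of the list was 1.03 without and 1.62 with GCV on the log2 scale, and that of all genes was 0 and 0.004. Cebpd, a C/EBP factor of the acute phase, went from 3.49 ± 0.67 to 35.2 ± 16.4 FPKM (SD, n = 3 each, log2 difference 2.90, limma adjusted p = 0.00492) without GCV and from 3.34 ± 0.53 to 50.1 ± 8.66 FPKM with GCV (3.55, adjusted p = 0.00256). Stat3, which carries interleukin‐6‐type signals to the nucleus, went from 12.6 ± 1.94 to 44.4 ± 0.76 FPKM (SD, n = 3 each, 1.75, adjusted p = 0.00343) and from 11.2 ± 1.31 to 41.7 ± 9.60 FPKM (1.79, adjusted p = 0.00256). Bcl3, a nuclear IkB protein, rose by 4.22 without (adjusted p = 0.006) and 3.85 with GCV (adjusted p = 0.00667) on the log2 scale. These 3 genes were called with the mouse as a block and in all 6 fits that left out 1 library, in both treatments.

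Socs3, the feedback inhibitor of STAT3 signaling, rose by 2.45 without GCV (adjusted p = 0.0151) and 3.13 with GCV (adjusted p = 0.00563). Without GCV its call was lost with the mouse as a block (adjusted p = 0.0781) and without the control retina of mouse 3 or mouse 4 or when IOP‐treated mouse 3 was left out. Nfkbia, an inhibitor of NF‐kB and among the most abundant of this list, was at 15.8 ± 2.21 FPKM in control retinas and 30.9 ± 9.32 FPKM after IOP without GCV (SD, n = 3 each, adjusted p = 0.226).

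Of 15 inducers and their receptors, 4 rose after IOP without GCV and 3 with GCV, with medians of 0.46 and 0.78 on the log2 scale. The cytokine receptor chains were among them. Osmr, the oncostatin M receptor, rose by 1.45 without GCV (limma adjusted p = 0.0105) and 1.68 with GCV (0.00435), and Tnfrsf1a, a receptor of tumor necrosis factor, by 1.22 (0.0325) and 1.81 (0.0059). Il6st, the chain shared by receptors of the interleukin‐6 family, rose by 0.83 without GCV (adjusted p = 0.0321) and was 0.72 higher with GCV, which missed the threshold (0.0521). Cntf, a neurotrophic cytokine of this family, rose by 1.26 (0.0257) and 1.53 (0.00959). Without GCV, the paired fit kept Cntf (adjusted p = 0.0391) and not Osmr (0.0578), Tnfrsf1a (0.131) or Il6st (0.0977), and none of the 4 was called without the control retina of mouse 3 or of mouse 4. Leaving out IOP‐treated mouse 3 also removed the calls of Tnfrsf1a, Cntf and Il6st, leaving out IOP‐treated mouse 6 those of Cntf and Il6st, and leaving out control mouse 6 that of Il6st. With GCV, Cntf lost its call only without the control retina of mouse 2. Lifr, the other abundant receptor of the list, was not called in either treatment.

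Of 26 other acute-phase proteins in the table, 19 were above 0 in some library. None was called after IOP without GCV by limma (8 at an unadjusted p under 0.05), and 4 rose with GCV, with medians of 0.55 and 0.34 on the log2 scale. Serpina3n, a serine protease inhibitor of reactive astrocytes, was at 14.1 ± 4.19 FPKM in control retinas and 238 ± 104 FPKM after IOP with GCV (SD, n = 3 each, log2 difference 3.94, limma adjusted p = 0.0177). Without GCV it was at 35.7 ± 43.0 and 165 ± 52.4 FPKM (SD, n = 3 each, 2.80, adjusted p = 0.079), with the high control of mouse 6 in the first group. The complement genes Cfb and C3 rose by 3.61 (adjusted p = 0.0147) and 3.32 (adjusted p = 0.0308) with GCV, and were 1.93 (adjusted p = 0.153) and 2.24 (adjusted p = 0.132) higher without. The metallothionein Mt2 rose by 1.91 with GCV (adjusted p = 0.0283), while Mt1, the most abundant of the list, was 0.87 higher (adjusted p = 0.184). With the mouse as a block C3 (adjusted p = 0.0584) and Mt2 (0.0808) were not called. Each of the 4 calls was also lost without any one of the 3 GCV control retinas, and those of Serpina3n, C3 and Mt2 when IOP‐treated mouse 5 was left out. That of C3 was lost without IOP‐treated mouse 1 and that of Mt2 without IOP‐treated mouse 2. Whether the IOP differences of these genes themselves differed between GCV and PBS was not tested.

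**Figure D3:**
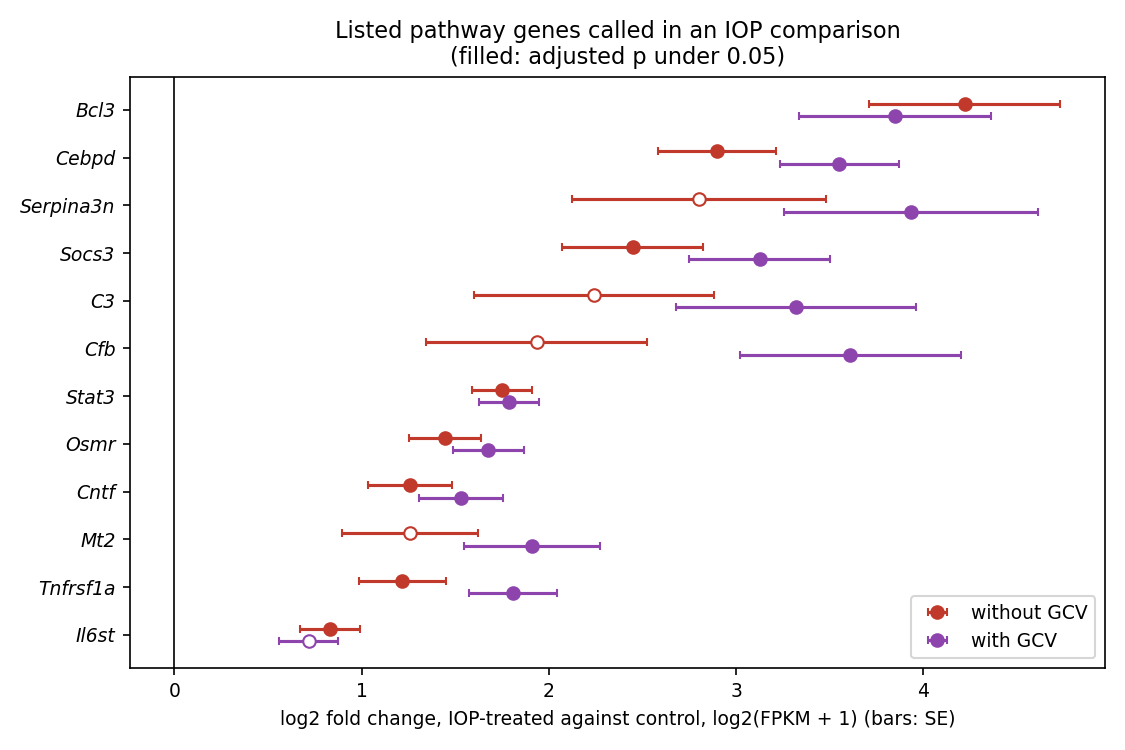
Log2 fold change of IOP‐treated against control retinas on the log2(FPKM + 1) scale (x axis, bars give the SE) for the 12 listed genes (y axis) called in at least 1 IOP comparison, red without and purple with GCV. Filled points passed an adjusted p of 0.05. All 24 points lie above 0, from 0.72 for Il6st with GCV to 4.22 for Bcl3 without GCV.

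Partners and receptors of the members showed no calls. Of 15 such genes 0 were called in either treatment by limma (2 without and 5 with GCV at an unadjusted p under 0.05), with medians of 0.10 without and 0.34 with GCV on the log2 scale. Slc22a17, a receptor of lipocalin 2, was at 56.2 ± 6.27 FPKM in control retinas and 26.6 ± 20.3 FPKM after IOP without GCV (SD, n = 3 each, log2 difference −1.32, adjusted p = 0.225). Hmox1, which breaks down heme, was at 4.09 ± 0.83 and 36.9 ± 30.1 FPKM without GCV (SD, n = 3 each, adjusted p = 0.168) and reached 287 FPKM in the IOP‐treated retina of mouse 5. Scarb1, a lipoprotein receptor that also binds serum amyloid A, was the most abundant of the list and differed by −0.06 without GCV (adjusted p = 0.848).

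Iron handling genes were not called either (limma, 0 of 13 tested in each treatment, 2 without and 3 with GCV at an unadjusted p under 0.05), with medians of 0.05 without and 0.10 with GCV. The ferritin heavy chain Fth1 was at 1571 ± 168 FPKM in control retinas and 2081 ± 520 FPKM after IOP without GCV (SD, n = 3 each, log2 difference 0.38, adjusted p = 0.655). The light chain Ftl1 was at 200 ± 34.1 and 409 ± 246 FPKM (SD, n = 3 each, 0.88, adjusted p = 0.351), and reached 1351 FPKM in the IOP‐treated retina of mouse 5. Trf, transferrin, differed by 0.96 (adjusted p = 0.317). At an unadjusted p under 0.05 there were 27 of the 74 tested genes of all 5 lists without and 39 with GCV, against 3501 and 3547 of all 18509 genes.

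The profile of each member over the 12 libraries was compared with that of 12907 genes, by Pearson correlation of log2(FPKM + 1). The libraries share the IOP grouping and, in pairs, a mouse, so these values describe likeness and carry no test. The members themselves were most alike in Lcn2 and Cp (r = 0.98) and in Saa3 and Lcn2 (r = 0.96), while Saa1 had r of 0.28 to 0.54 with the others on a handful of fragments. Closest to Saa3 were Lpxn (0.99), and Csf3r, Il10ra, Il1b and AB124611 (each 0.98), of which Csf3r is the receptor of granulocyte colony-stimulating factor. Il1b, interleukin‐1 beta, was at 40.3 FPKM in the IOP‐treated retina of mouse 5 and at 2.06 to 6.62 FPKM in the other IOP‐treated retinas.

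Closest to Lcn2 were Slfn4 (0.99), Trim30a, Sp100, Vwa5a and Ccr2 (0.98 each). Hp was most like Ftl1, Cstb and Ggta1 (0.97 to 0.98), and in Ftl1 the 2 highest retinas, IOP‐treated mouse 5 at 1351 FPKM and mouse 3 at 691 FPKM, were also the 2 highest in Hp. Cp was most like Lcn2, Eif2ak2 and Slfn5 (0.98 each), Steap4 like Rsad2, Fam46a and Slfn4 (0.97 each), and Saa1 like Stc1, Pfkfb3 and Osbpl9 (0.88 to 0.91).

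Markers of some other cell types were higher after IOP too, and those of others were not. Retinal ganglion cell markers had median log2 differences of −1.12 without and −1.44 with GCV, with 0 of 7 above 0. Mueller glia had −0.41 and −0.30, and rods −0.31 and −0.16. Microglia had 0.85 and 0.66, with 2 and 1 of 7 called higher by limma. Medians of retinal pigment epithelium, endothelium, and ciliary body, iris and cornea lay between −0.22 and 0.22. The 8 monocyte and macrophage markers summed to 12.3 to 51.9 FPKM in control and 353 to 945 FPKM in IOP‐treated retinas without GCV, and to 9.97 to 25.8 and 173 to 2409 FPKM with GCV. Of these, 6 rose in each comparison (Ccr2, Ly6c2, Plac8, Lyz2, Cd68 and Ms4a7). The retinas highest and lowest in this sum with GCV, those of mice 5 and 2, were also highest and lowest in Saa3, Lcn2, Hp, Cp and Steap4 among the IOP‐treated GCV retinas, whereas without GCV mouse 4 had the lowest sum and the highest Saa3, Lcn2, Cp and Steap4. IOP‐treated mouse 4 stood apart in ganglion cell markers too. Their sum was 959 FPKM there and 990 FPKM in its control eye, against 206 and 406 FPKM in IOP‐treated mice 3 and 6.

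Neutrophil markers summed to 1.11 to 5.06 FPKM in control and 17.8 to 114 FPKM in IOP‐treated retinas without GCV, and to 2.25 to 16.9 and 31.1 to 388 FPKM with GCV, highest in mouse 5 in both eyes. The sum rests mainly on S100a8 and S100a9, at 267 and 107 FPKM in IOP‐treated mouse 5 and at 91.1 and 15.6 FPKM in IOP‐treated mouse 6. None of the 9 tested was called in either comparison by limma (2 without and 3 with GCV at an unadjusted p under 0.05), and Mpo was at 0 in all 12 libraries. Saa3 was highest in mouse 5 in both eyes as well. Reactive glia markers summed to 84.9 to 137 FPKM in control and 378 to 492 FPKM in IOP‐treated retinas without GCV, and to 105 to 133 and 398 to 941 FPKM with GCV. Of these 7 markers 6 rose without and all 7 with GCV, Osmr being one of them.

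Lens markers summed to 6.75 to 36.9 FPKM in control and 101 to 4954 FPKM in IOP‐treated retinas without GCV, and to 72.9 to 6768 and 3146 to 6285 FPKM with GCV, with none of 9 called by limma (7 without and 4 with GCV at an unadjusted p under 0.05). The sum was 3146 FPKM or more in 5 of the 6 IOP‐treated retinas and 122 FPKM or less in 5 of the 6 controls. The control retina of mouse 1 had the highest lens sum of all 12 libraries. Its Saa3, 0.358 FPKM on about 1 fragment, was the lowest of all, at a level where controls cannot be ranked. IOP‐treated mouse 3, with the lowest lens sum after IOP at 101 FPKM, also had the lowest Saa3 (17.4 FPKM) and Cp (84.7 FPKM) of the 6 IOP‐treated retinas. Blood markers summed to 81.3 to 152 FPKM in control and 25.6 to 524 FPKM in IOP‐treated retinas without GCV, highest in mouse 3, and to 56.2 to 193 and 50.4 to 107 FPKM with GCV. The part of monocytes, neutrophils, glia, lens tissue and blood in the levels of the members was not tested.

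**Figure D4:**
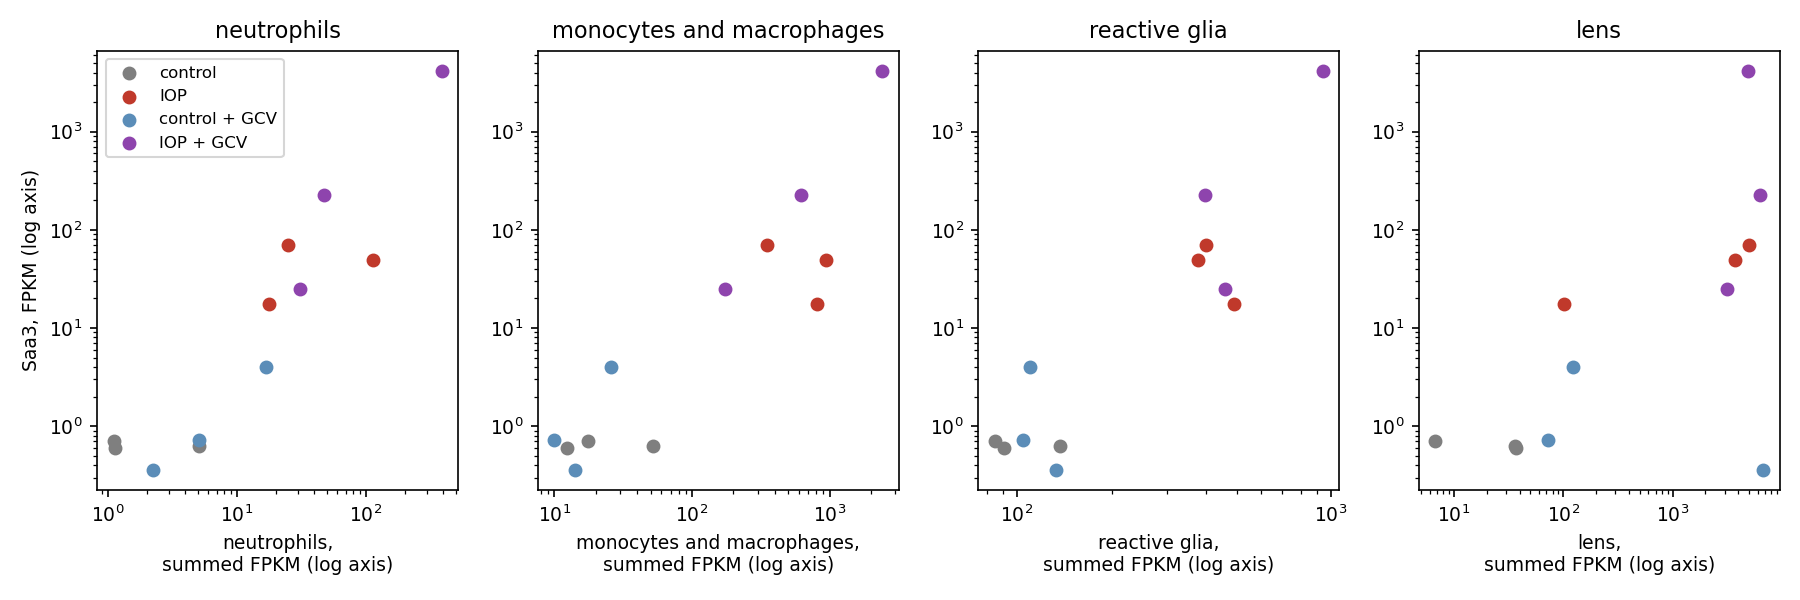
Saa3 in FPKM (y axis, log scale) against the summed FPKM of 4 marker lists (x axes, log scale) in the 12 retinas, colored by group. The retina at 4173 FPKM of Saa3, IOP‐treated mouse 5, is also highest in the neutrophil (388), monocyte and macrophage (2409) and reactive glia (941) sums. In the lens panel the control retina of mouse 1 has the highest sum and the lowest Saa3, on about 1 fragment. IOP‐treated mouse 3 has the lowest lens sum and the lowest Saa3 after IOP.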

How the data were processed

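RNA was extracted from 12 retinas of 6 mice and sequenced as stranded mRNA libraries with paired reads of 50 bases. Per the methods the authors counted reads on exons of RefSeq genes with HOMER. Per the labels the build was mm10, and TopHat2, Bowtie2, Cufflinks and Cuffdiff were used, with no role or version given. The deposited table holds FPKM values. Their unit, and whether they were scaled further, are not stated, and the unit was inferred from low values that scaled with transcript length. For the depth, 2243 genes with 1 transcript and a length of 1500 bases or more were used, after taking 170 bases off the length. Between 75.7% and 82.4% of their low values fell within 0.1 of a whole fragment. Because the counts are estimates, no count test was run.

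Values were tested as log2(FPKM + 1) with limma 3.58.1 (R 4.3.3), 4 group means, a variance trend and Benjamini-Hochberg adjustment over 18509 genes, called at 0.05. The 2 eyes with 1 number come from the same mouse, and deviations of the eyes from their group means correlated over 12910 genes at r = −0.12, 0.13, 0.21, 0.39, 0.17 and 0.10 in mice 1 to 6. The paired fit has the mouse as a block. The members, lists, motifs and tests were chosen with earlier results of these data known. Named genes are the members, every called gene and the 3 most abundant of each pathway list, and the 5 (Saa3, Lcn2) or 3 closest genes by correlation among those with a mean of at least 1 FPKM. Of each list, other genes are named only where a value stands beside a member, and these were chosen after their values were seen. Alternatives were a pseudocount of 0.1, at least 1 FPKM in 3 libraries, only the groups compared, median-ratio scaling, no variance trend, an adjusted p under 0.1, the mouse as a block and each library left out in turn. Leaving out mouse 6 or mouse 5 was added after seeing the data. Of the row names 95.1% were RefSeq symbols, and 2 duplicated names were dates. Python 3.11.15, pandas 2.3.3, numpy 2.4.6, Biopython 1.88 and matplotlib 3.10.9 were used for values, alignments and figures.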

Additional observations from a re-analysis of the deposited data

How the results depend on the processing

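The precision is set by 3 retinas a group and by depth, since Saa3, Saa1 and Hp had few fragments in control retinas. Without GCV, the count of members called higher after IOP, 1, became 2 with a pseudocount of 0.1 (Steap4 added), with only the groups compared (Saa3 added) and at an adjusted p under 0.1 (Cp added), 0 with the mouse as a block, 0 without mouse 6, and 0 to 1 when 1 library was left out. The block changed no other member's call. All members kept the direction of the IOP difference without GCV, except Saa1, which was 0 when IOP‐treated mouse 4 was left out. Lcn2 lost its call at 3.46 with the block, at 3.65 without mouse 6 and in 4 of the 6 fits without 1 library, while all 6 gave 3.14 to 3.72. Over all genes the 306 calls became 464 with a pseudocount of 0.1, 607 at an adjusted p under 0.1, 75 with the block and 23 to 2490 without 1 library (23 without the control retina of mouse 3, 2490 without IOP‐treated mouse 4). The pathway genes called without GCV, 8, became 4 with the block and 3 to 11 without 1 library (3 without the control retina of mouse 3 or 4, 4 without IOP‐treated mouse 3). With GCV the 11 became 18 with a pseudocount of 0.1, 17 with the filter on low values, 19 at an adjusted p under 0.1, 4 without mouse 5 and 6 to 21 without 1 library (6 without the control retina of mouse 2, 7 without that of mouse 1 or 5, 21 without IOP‐treated mouse 2), and all 334 calls became 144 with the block, 535, 780, 92 with only the groups compared, 67 without mouse 5 and 77 to 716 without 1 library (77, 78 and 94 without the control retina of mouse 2, 1 or 5, 716 without IOP‐treated mouse 2). The causes were not tested. For GCV in control retinas, uncalled differences changed sign when 1 library was left out: Steap4 ranged from −0.0273 to 0.22, Lcn2 from −0.0134 to 0.43, Cp from −0.24 to 0.0195 (0.00187 without mouse 1 with GCV) and Saa3 from −0.11 to 0.83. In IOP‐treated retinas Saa3 ranged from 0.92 to 4.59 with no change of sign, Cp from −0.27 to 0.43, Steap4 from −0.41 to 0.83, Saa1 from −0.11 to 0.49, Lcn2 from −0.0714 to 1.34 and Hp from −0.0382 to 2.53.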
